A study of Danio rerio with 18 samples.

Results

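Pigment cell transcripts were followed through caudal fin regeneration in zebrafish with and without exposure to TCDD. The set comprised 8 genes: gch2, slc2a15b and slc2a11b for xanthophores, the yellow pigment cells, and mitfa, dct, pmela, tyrp1b and kita for melanophores, the black pigment cells. Every probe set that the platform annotation assigns to one of these symbols was taken, which gave 8 probe sets among the 15502 tested. 6 of the 8 genes had a probe set. gch2 and slc2a15b had 2 each, and slc2a11b, mitfa, dct and kita had 1 each. pmela and tyrp1b were not analysed here, since neither was found by symbol, synonym, Entrez ID or accession in the annotation used.

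All fish were adult males of the AB strain. Their caudal fins were cut where the rays branch, and each fish received 1 injection of phosphatidylcholine liposomes. The vehicle groups received liposomes alone, and the TCDD groups liposomes bringing the dose to 50 ng per g of fish. TCDD (2,3,7,8-tetrachlorodibenzo-p-dioxin) is a ligand of the aryl hydrocarbon receptor. Tissue was collected at 1, 3 or 5 days post amputation (dpa), and the cut lay within 2 ray segments anterior to the first one, so that the samples held regenerate and a short stretch of stump. Each of the 6 groups had 3 Affymetrix arrays, and each array held the pooled RNA of 10 fish, so that errors describe the spread between pools. Replicates carry the letters A to E. The design asks how the transcripts of regenerating fin differ between the exposures on each day and over the days.

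Zebrafish pigment cells arise from the neural crest, and the adult fin keeps precursors from which new pigment cells form during regeneration. Xanthophores hold yellow pteridines, made from GTP, together with carotenoids taken up from the diet. Melanophores hold melanin, made from tyrosine in melanosomes. Among the xanthophore genes, gch2 encodes a GTP cyclohydrolase, which carries out the first step of pteridine synthesis, and slc2a15b and slc2a11b encode members of the sugar transporter family that are needed in medaka for the colouring of leucophores and xanthophores. Among the melanophore genes, mitfa encodes the transcription factor on which melanophores depend, dct encodes dopachrome tautomerase, an enzyme of melanin synthesis, and kita encodes a receptor tyrosine kinase needed for melanophore migration and survival.

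Levels are log2(intensity + 1). An array was taken as the sample, and differences were tested with limma over all 15502 probe sets, with a call at an adjusted p under 0.05. Array medians of the deposited intensity lay between 75.13 and 84.12. cyp1a, the classical target of the aryl hydrocarbon receptor, read between 12.07 and 14 on the TCDD arrays and between 4.19 and 10.13 on the vehicle arrays, so that the groups did not overlap. The vehicle level was uneven: the letter B array was the highest of its day, at 8.68, 8.03 and 10.13 at 1, 3 and 5 dpa. The reason was not tested. RNA quality was read from GAPDH controls at the 3′ and the 5′ end of the transcript, whose log2 levels differed by 1.38 to 4.06, with the highest values on the letter C arrays at 3 dpa (3.38 with vehicle and 4.06 with TCDD).

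The brighter gch2 probe set lay at percentile 59.9 of all probe sets by mean level, that of slc2a15b at 53.6, slc2a11b at 67.8 and mitfa at 44.0. dct (percentile 31.4), kita (29.4), the second gch2 set (26.6) and the second slc2a15b set (18.1) were dim, below percentile 40. A difference in a dim probe set is understated on this scale.

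The 3 xanthophore genes were called lower with TCDD in the mean over the days, and no melanophore gene was called. Averaged over the 3 days, gch2 fell 2.95-fold and slc2a15b 1.97-fold, each on its brighter probe set, and slc2a11b fell 1.62-fold. The second sets of gch2 (1.15-fold, adjusted p = 0.37) and slc2a15b (1.45-fold, adjusted p = 0.1) were not called in this contrast. The 3 melanophore probe sets lay between -0.09 and 0.30 on the log2 scale in the same contrast. In pooled tissue, fewer cells of a type and less RNA per cell cannot be told apart.

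**Figure D1:**
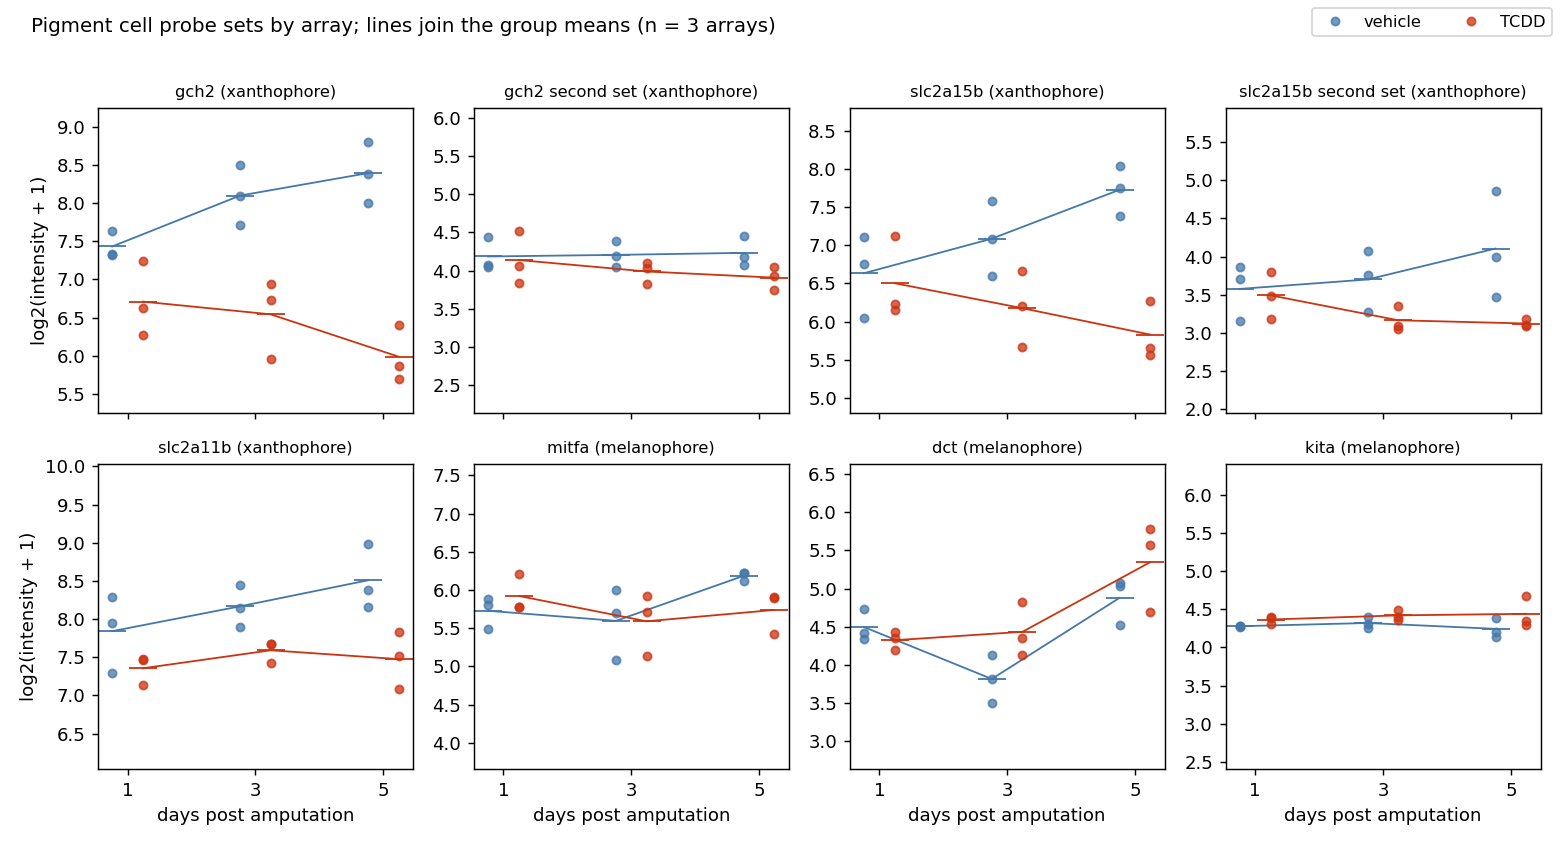
Level of each pigment cell probe set, as log2(intensity + 1), on every array at 1, 3 and 5 dpa. Points are arrays (blue vehicle, red TCDD), short bars are the means of 3 arrays, and every panel spans the same range. The vehicle and TCDD points of gch2 lie apart on each day, and those of slc2a15b and slc2a11b lie apart at 5 dpa.

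gch2 stood on its brighter probe set at 7.32, 7.33 and 7.64 on the vehicle arrays B, D and E at 1 dpa, and at 6.62, 6.27 and 7.24 on the TCDD arrays A, B and D. At 3 dpa the vehicle arrays A, B and C read 7.71, 8.09 and 8.50, and the TCDD arrays A, B and C read 6.94, 5.95 and 6.74. At 5 dpa the vehicle arrays A, B and C read 8.38, 7.996 and 8.80, and the TCDD arrays A, B and D read 5.87, 6.40 and 5.70. Every TCDD array lay below every vehicle array of its day, and the highest TCDD value of any day lay below the lowest vehicle value of any day. Only 17 of the 15502 probe sets, 0.11%, were lower with TCDD without overlap over all 9 arrays against 9.

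The order of the gch2 group means was 5.99 with TCDD at 5 dpa, 6.54 with TCDD at 3 dpa, 6.71 with TCDD at 1 dpa, then 7.43, 8.10 and 8.39 with vehicle at 1, 3 and 5 dpa. The TCDD groups overlapped with their neighbours in this order, as did vehicle at 3 and 5 dpa. TCDD at 1 dpa did not overlap with vehicle at 1 dpa, nor vehicle at 1 dpa with vehicle at 3 dpa. The TCDD effect on gch2 was -0.72 ± 0.31 at 1 dpa (log2 difference ± SE, n = 3 arrays a group, limma adjusted p = 0.577), -1.55 ± 0.31 at 3 dpa (adjusted p = 0.0239) and -2.40 ± 0.31 at 5 dpa (adjusted p = 0.00133). These correspond to levels 1.65-fold, 2.94-fold and 5.29-fold lower, of which those at 3 and 5 dpa were called. The mean effect over the days was -1.56 ± 0.18 (adjusted p = 0.000131).

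The gch2 call at 3 dpa was lost when vehicle array B or C or TCDD array B or C of that day was left out (adjusted p up to 0.111), and it was lost without both letter C arrays (adjusted p = 0.231). The call at 5 dpa held without any 1 of the 18 arrays (adjusted p up to 0.00853), and so did the mean effect (up to 0.000519).

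The second gch2 set stayed between 3.74 and 4.52 on all 18 arrays. Its TCDD effect was -0.33 ± 0.17 at 5 dpa (adjusted p = 0.336), where the groups did not overlap. It was not called in any TCDD contrast. Pearson's r between both gch2 sets over the 18 arrays was 0.491, and 0.0629 for deviations from the group means.

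slc2a15b read 6.75, 6.05 and 7.10 on the vehicle arrays B, D and E at 1 dpa, and 7.13, 6.15 and 6.23 on the TCDD arrays A, B and D. The 3 dpa values were 7.58, 6.59 and 7.09 with vehicle (A, B and C) and 6.66, 5.67 and 6.20 with TCDD (A, B and C). At 5 dpa they were 8.04, 7.38 and 7.75 with vehicle (A, B and C) and 6.28, 5.56 and 5.65 with TCDD (A, B and D). The exposures overlapped at 1 and 3 dpa and lay apart at 5 dpa. In the order of its group means, slc2a15b ran like gch2 from TCDD at 5 dpa (5.83) to vehicle at 5 dpa (7.73), but each group overlapped with the next.

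slc2a15b fell with TCDD by 1.90 ± 0.36 on the log2 scale at 5 dpa, 3.72-fold (adjusted p = 0.0136). The difference was -0.13 ± 0.36 at 1 dpa (adjusted p = 0.959) and -0.91 ± 0.36 at 3 dpa (adjusted p = 0.348). In a fit that blocks for the replicate letter the 3 dpa difference passed (adjusted p = 0.0111). In both exposures array A was the highest and array B the lowest on that day. The mean effect was -0.98 ± 0.21 (adjusted p = 0.0131). The 5 dpa call was lost without vehicle array A or C or TCDD array B or D of that day (adjusted p up to 0.062), and the mean effect held without any 1 array (up to 0.0321). With only letters held by both exposures, neither was called (adjusted p = 0.119 and 0.0658).

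The second slc2a15b set read 3.99, 3.47 and 4.85 with vehicle at 5 dpa and 3.18, 3.09 and 3.10 with TCDD, without overlap. Its difference of -0.98 ± 0.29 was not called (adjusted p = 0.1), and it moved with single vehicle arrays of that day: it was -1.30 without array B (adjusted p = 0.038) and -0.61 without array C (adjusted p = 0.28). With only letters held by both exposures it was -0.60 (adjusted p = 0.463). Its mean effect was -0.53 ± 0.17 (adjusted p = 0.1), -0.64 without vehicle array B of 5 dpa (adjusted p = 0.0288) and -0.41 without vehicle array C (adjusted p = 0.149).

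slc2a11b read 7.95, 7.29 and 8.29 on the vehicle arrays B, D and E at 1 dpa, against 7.46, 7.48 and 7.13 on the TCDD arrays A, B and D. At 3 dpa it read 8.45, 7.90 and 8.15 with vehicle (A, B and C) and 7.67, 7.68 and 7.42 with TCDD (A, B and C). At 5 dpa it read 8.98, 8.16 and 8.39 with vehicle (A, B and C) and 7.83, 7.51 and 7.09 with TCDD (A, B and D). The exposures overlapped at 1 dpa and lay apart at 3 and 5 dpa. The TCDD group means stayed between 7.36 and 7.59, while the vehicle means were 7.84, 8.17 and 8.51.

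On a single day the slc2a11b difference was not called: it was -0.49 ± 0.27 at 1 dpa (adjusted p = 0.693), -0.58 ± 0.27 at 3 dpa (adjusted p = 0.456) and -1.03 ± 0.27 at 5 dpa (adjusted p = 0.0635). The 5 dpa value passed when letters were blocked (-0.90, adjusted p = 0.0225) and without vehicle array D of 1 dpa (adjusted p = 0.0407). Its mean effect of -0.70 ± 0.15 was called (adjusted p = 0.0168) and held without any 1 array (adjusted p up to 0.0409). This call was lost without both letter C arrays at 3 dpa (adjusted p = 0.0681) and with only letters held by both exposures (adjusted p = 0.124).

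mitfa read 5.89, 5.49 and 5.81 with vehicle at 1 dpa (B, D and E) and 6.21, 5.78 and 5.78 with TCDD (A, B and D). At 3 dpa it read 6.001, 5.08 and 5.70 with vehicle and 5.92, 5.14 and 5.71 with TCDD (A, B and C in both). At 5 dpa it read 6.22, 6.22 and 6.12 with vehicle (A, B and C) and 5.91, 5.42 and 5.89 with TCDD (A, B and D). The exposures overlapped at 1 and 3 dpa, and at 5 dpa the TCDD arrays lay below the vehicle arrays. The differences were 0.19 ± 0.25, -0.01 ± 0.25 and -0.45 ± 0.25 at 1, 3 and 5 dpa (adjusted p = 0.91, 0.996 and 0.355). The 95% interval of the mean effect ran from -0.39 to 0.22.

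dct read 4.34, 4.42 and 4.73 with vehicle at 1 dpa (B, D and E) and 4.43, 4.35 and 4.19 with TCDD (A, B and D). At 3 dpa it read 4.13, 3.49 and 3.82 with vehicle and 4.35, 4.13 and 4.83 with TCDD (A, B and C in both). At 5 dpa it read 5.08, 5.04 and 4.52 with vehicle (A, B and C) and 5.57, 4.70 and 5.77 with TCDD (A, B and D). The exposures overlapped on each day. The differences were -0.17 ± 0.26, 0.62 ± 0.26 and 0.47 ± 0.26 (adjusted p = 0.927, 0.407 and 0.367), and the 95% interval of the mean effect ran from -0.02 to 0.63.

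kita stayed between 4.14 and 4.67 on all arrays. Its differences were 0.09, 0.10 and 0.20 with an SE of 0.11 each (adjusted p = 0.903, 0.795 and 0.35), and the 95% interval of the mean effect ran from -0.004 to 0.26. Both kita and dct are dim, so that a difference in either is understated on this scale. Their SEs were 0.11 and 0.26, against 0.31 for gch2 on its brighter set. The spread of a dim probe set is understated as well, so that a smaller SE does not mean a better measured gene.

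Counted together, 0 of the 8 probe sets were called at 1 dpa by limma, against 0.245% of all probe sets, and 1 of 8 (gch2) had an unadjusted p under 0.05, as had 8.01% of all probe sets. At 3 dpa 1 of the 5 xanthophore probe sets was lower, against 0.729% of all probe sets called lower. At 5 dpa 2 of 5 were lower, against 0.877%, and in the mean effect 3 of 5, against 2.08%. None of the 3 melanophore probe sets was called in any of these contrasts. With a letter block the call counts were 2 at 3 dpa, against 3.15% of all probe sets in either direction, and 3 at 5 dpa, against 3.35%. The members and the other lists were chosen with earlier results of these data known. Their shares beside those of all probe sets or genes, here and below, are therefore a description and not a test.

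Without overlap between the groups, 1 xanthophore probe set was lower at 1 dpa (gch2, against 3.01% of all probe sets), 2 at 3 dpa (gch2 and slc2a11b, against 6.35%) and all 5 at 5 dpa (against 17.4%). mitfa was also lower without overlap at 5 dpa, and kita was higher without overlap at 1 dpa, as were 8.76% of all probe sets. The median difference of the xanthophore probe sets was -0.13, -0.58 and -1.03 at 1, 3 and 5 dpa, that of the melanophore probe sets 0.09, 0.10 and 0.20, and that of all probe sets 0.05, 0.04 and -0.04. The difference between the classes was not tested.

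**Figure D2:**
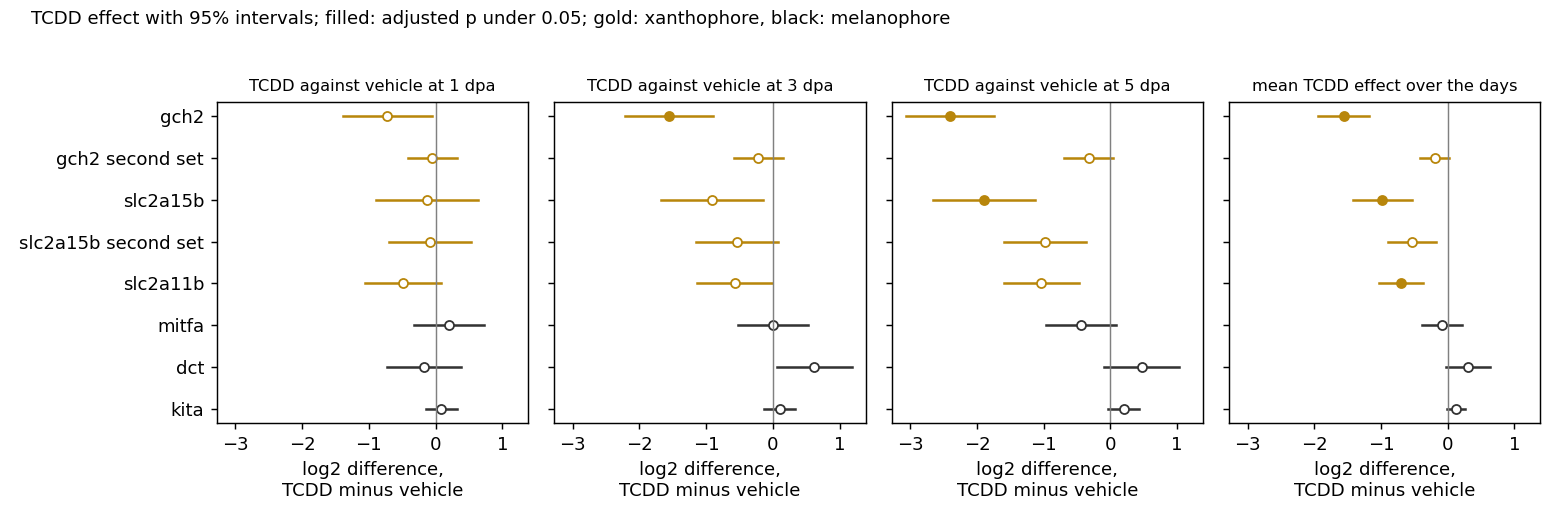
TCDD minus vehicle log2 difference of each pigment cell probe set at 1, 3 and 5 dpa and averaged over the days (n = 3 arrays a group), with 95% intervals; filled points have an adjusted p under 0.05. gch2 moves from -0.72 to -2.40 over the days, while the intervals of kita, mitfa and dct hold 0 in each panel except dct at 3 dpa.

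No member probe set was called for a TCDD effect that differs between the days (limma F test, 0.0516% of all probe sets called, 1889 with an unadjusted p under 0.05). gch2 had an unadjusted p of 0.00615 (adjusted p = 0.28) and slc2a15b of 0.0114 (adjusted p = 0.303). Taken as a single contrast, chosen after the data were seen, the effect at 5 dpa minus that at 1 dpa was -1.68 ± 0.44 for gch2 (adjusted p = 0.142) and -1.77 ± 0.51 for slc2a15b (adjusted p = 0.158). A growth of the difference with time was therefore not called.

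Vehicle and TCDD arrays of 1 day and the same letter form 7 pairs (B and D at 1 dpa, A, B and C at 3 dpa, A and B at 5 dpa). gch2 was lower with TCDD in 7 of 7 pairs, by 0.10 for D at 1 dpa to 2.51 for A at 5 dpa. slc2a11b was lower in 7 of 7 pairs, by 0.16 to 1.15. Of all probe sets, 3.23% were lower in every pair.

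slc2a15b was lower in 6 of 7 pairs on its brighter set. Its differences were near equal at 3 dpa, at -0.92, -0.92 and -0.89 for A, B and C, and at 5 dpa, at -1.77 and -1.82 for A and B. At 1 dpa they were apart, at -0.60 for B and 0.18 for D. mitfa was lower in 4 of 7 pairs, dct in 2 and kita in 2. The second gch2 set was lower in 7 of 7 pairs (differences of -0.41 to -0.01). The second slc2a15b set was lower in 5 of 7 pairs, and higher with TCDD at 1 dpa, by 0.33 for B and 0.095 for D.

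**Figure D3:**
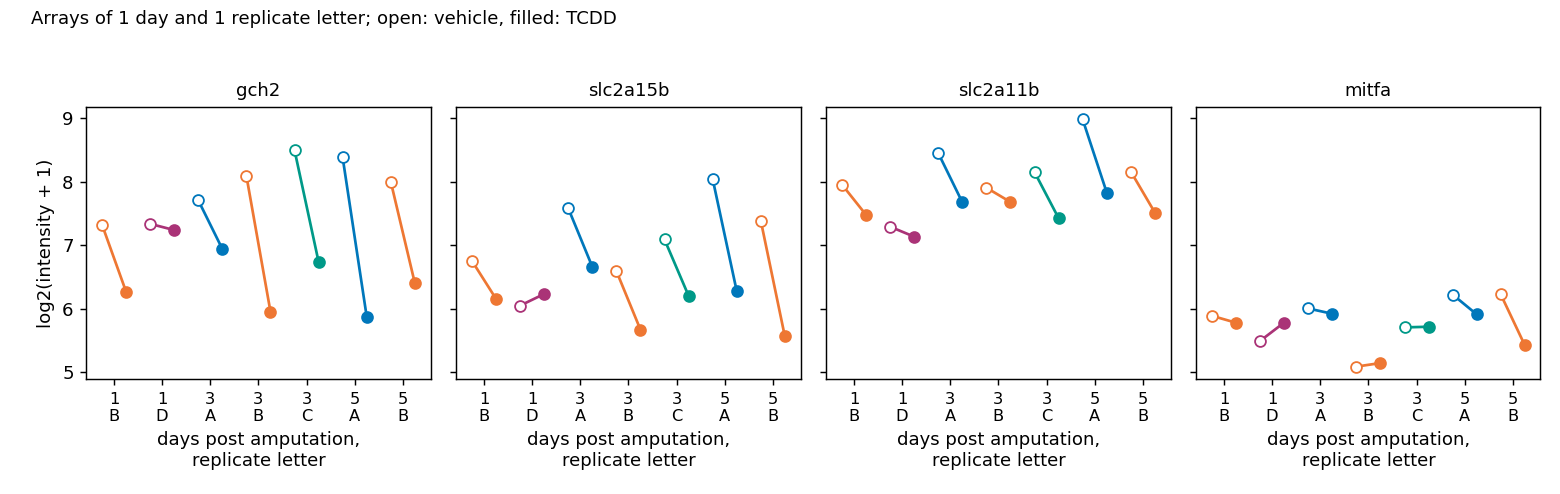
Levels, as log2(intensity + 1), of gch2, slc2a15b, slc2a11b and mitfa on the 7 pairs of arrays of the same day and replicate letter; open points are vehicle, filled points TCDD, colours are letters. All 7 lines of gch2 and slc2a11b go down, the lines of slc2a15b at 3 dpa are parallel at different heights, and 4 of 7 lines of mitfa go down.

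Over regeneration in vehicle fish, gch2 and slc2a15b rose on their brighter probe sets from 1 to 5 dpa, as 7.22% of all probe sets did. The differences were 0.96 ± 0.31 (adjusted p = 0.0455) and 1.09 ± 0.36 (adjusted p = 0.0476). Those of the second sets of gch2 and slc2a15b were 0.05 (adjusted p = 0.884) and 0.53 (adjusted p = 0.244), and neither was called. slc2a11b had a difference of 0.67 (adjusted p = 0.105), mitfa of 0.46 (adjusted p = 0.237) and dct of 0.38 (adjusted p = 0.367). Both calls were close to the threshold. With a letter block gch2 was no longer called (adjusted p = 0.129). Its call also went when any of these arrays was left out (adjusted p up to 0.167): vehicle B, D or E at 1 dpa, B at 3 dpa, A or C at 5 dpa, and TCDD A at 1 dpa, C at 3 dpa or A at 5 dpa. That of slc2a15b was lost without vehicle B or D at 1 dpa, C at 3 dpa, A, B or C at 5 dpa, or without TCDD B or D at 1 dpa, C at 3 dpa, B or D at 5 dpa (adjusted p up to 0.209).

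In TCDD fish, gch2 had a difference of -0.72 ± 0.31 from 1 to 5 dpa (adjusted p = 0.116) and slc2a15b of -0.67 ± 0.36 (adjusted p = 0.201), and neither was called. Their second sets differed by -0.23 (adjusted p = 0.37) and -0.37 (adjusted p = 0.393). slc2a15b passed with a letter block (adjusted p = 0.0103, against 27.9% of all probe sets called in either direction). dct rose by 1.02 ± 0.26 (adjusted p = 0.0134, against 7.81% of all probe sets called higher), and this call was lost without TCDD array D at 5 dpa (adjusted p = 0.0724). Vehicle and TCDD courses were not tested against each other apart from the test between days above.

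None of the 8 probe sets was called in a single step. From 1 to 3 dpa, 5.51% of all probe sets were called with vehicle and 10.8% with TCDD, and from 3 to 5 dpa 0.342% and 0.0129%. The vehicle levels of dct differed by -0.68 from 1 to 3 dpa (unadjusted p = 0.0206, adjusted p = 0.165), without overlap as in 10.4% of all probe sets. They differed by 1.06 from 3 to 5 dpa (unadjusted p = 0.00106, adjusted p = 0.104), without overlap as in 12.1%. gch2 lay without overlap 0.67 higher at 3 than at 1 dpa with vehicle (unadjusted p = 0.0492, adjusted p = 0.276), as did 8.7% of all probe sets. mitfa lay without overlap 0.59 higher at 5 than at 3 dpa with vehicle (unadjusted p = 0.0301, adjusted p = 0.341). dct differed by 0.91 from 3 to 5 dpa with TCDD (unadjusted p = 0.00341, adjusted p = 0.739), where the groups overlapped.

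The 3 brighter xanthophore probe sets rose and fell together over the 18 arrays. Pearson's r was 0.797 between gch2 and slc2a15b, 0.705 between gch2 and slc2a11b and 0.844 between slc2a15b and slc2a11b. These values hold the group differences. For deviations from the group means r was 0.707 for slc2a15b with slc2a11b, but 0.19 for gch2 with slc2a15b and -0.03 for gch2 with slc2a11b. The second gch2 set differed from the brighter one here. Its r for deviations was 0.831 with slc2a15b, 0.693 with slc2a11b and 0.561 with mitfa, but 0.0225 with the second slc2a15b set. For slc2a15b with mitfa it was 0.828 and for mitfa with dct 0.674, but 0.445 for slc2a15b with dct. The 18 arrays share letters, and the values are a description.

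Genes whose levels over the 18 arrays were most like those of gch2 were sought among 1249 genes of mean level 5 or more and SD of 0.5 or more. The 5 with the highest Pearson's r, leaving out 1 clone name, were gja1b (0.843), a connexin, cpne2 (0.827), a copine, cyp26b1 (0.82), an enzyme that breaks down retinoic acid, slc2a15b (0.797) and vcanb (0.788), a versican. gja1b, cpne2, cyp26b1 and vcanb also fell with TCDD in the mean effect (-1.59, -0.95, -1.03 and -1.78, each called by limma, against 2.48% of all genes called lower). They were picked for their likeness to gch2, which lay apart between the exposures. The fall of these genes therefore largely follows from how they were picked, and is a description. From 1 to 5 dpa with vehicle, only cyp26b1 of these rose (adjusted p = 0.00848). Among 1250 genes, those most like dct were and3 (0.793), an actinodin, oxr1b (0.744), gpx1b (0.663), a glutathione peroxidase, fsta (0.659), a follistatin, and rgs5a (0.653). All these values of r hold the group differences.

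Other pigment genes were read from lists of which some genes had a probe set. Of 25 genes of pteridine and carotenoid pigment, 8 besides the 3 xanthophore genes were measured, each by its brightest probe set. 1 of the 8 fell with TCDD at 5 dpa, and the same gene in the mean effect, against 0.955% and 2.48% of 8793 genes called lower. It was pcbd1, a dehydratase that recycles tetrahydrobiopterin. pcbd1 read 10.4, 10.0 and 10.6 with vehicle at 5 dpa (A, B and C) and 9.13, 9.14 and 9.52 with TCDD (A, B and D), without overlap. The difference was -1.07 ± 0.22 (adjusted p = 0.0283), lost without vehicle A or C or TCDD A or B of that day (adjusted p up to 0.108). Its mean effect was -0.76 ± 0.13 (adjusted p = 0.00322) and held without any 1 array (up to 0.00912). At 3 dpa its difference of -0.87 was not called (adjusted p = 0.0896), but passed with a letter block (adjusted p = 0.0146). The letter block called more of all probe sets in either direction. It called 3.15% at 3 dpa, 3.35% at 5 dpa and 6.86% in the mean effect, against 1.11%, 1.64% and 3.78% without. These shares stand beside each blocked TCDD effect of a list gene below.

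The median difference of the 8 genes was -0.45 at 5 dpa, against 0.01 over all genes. After pcbd1, the smallest adjusted p at 5 dpa belonged to qdpra, a dihydropteridine reductase (-0.60, adjusted p = 0.0521). Then came scarb1, a scavenger receptor that takes up carotenoids (-1.07, adjusted p = 0.0588), and bco1, which cleaves beta-carotene (-0.77, adjusted p = 0.096). None of these was called. With a letter block qdpra (adjusted p = 0.017) and scarb1 (adjusted p = 0.0407) passed at 5 dpa. The mean effect of qdpra was -0.32 (adjusted p = 0.0501), and it passed with a letter block too (adjusted p = 0.0209). qdpra was dim, and its second set differed by -0.57 at 5 dpa (adjusted p = 0.123) and by -0.17 in the mean effect (adjusted p = 0.486). The second set of scarb1 differed by -1.32 at 5 dpa (adjusted p = 0.0751). bco2a, another carotene oxygenase, differed the other way at 5 dpa, by 0.44 (adjusted p = 0.417) and by 0.85 on its second set (adjusted p = 0.183), and mycbp2 by -0.01 (adjusted p = 0.992). csf1ra, the receptor tyrosine kinase on which xanthophores depend, was dim and differed by -0.30 at 5 dpa (adjusted p = 0.451), and pax7a, a transcription factor of the xanthophore lineage, by -0.09 (adjusted p = 0.75).

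In vehicle fish, 4 of these 8 genes rose from 1 to 5 dpa, against 7.46% of all genes: pcbd1 by 1.70, bco1 by 1.64, qdpra by 0.94 and scarb1 by 0.90 (adjusted p = 0.000156, 0.000209, 0.000507 and 0.0323). In TCDD fish pcbd1 alone of the 8 rose, by 0.97 (adjusted p = 0.00754), against 8.37% of all genes. bco1 passed there too with a letter block (adjusted p = 0.0228, against 27.9% of all probe sets called in either direction). For a TCDD effect that differs between the days, 0 of the 8 were called (limma F test, smallest adjusted p = 0.28). The 2 courses were not otherwise tested against each other.

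Of 31 genes of melanin synthesis and the melanosome, 10 including dct were measured, and none was called in a TCDD contrast by limma. The smallest adjusted p of the mean effect belonged to tspan36, a tetraspanin (-0.34, adjusted p = 0.0944), which passed with a letter block (adjusted p = 0.015), then to dct and to vps18, a vesicle trafficking protein (0.18, adjusted p = 0.393). tyr, the rate-limiting enzyme of melanin synthesis, pmelb and mc1r lay at percentiles 4.14, 1.99 and 0.0903 by mean level, so that melanin synthesis was read mainly through dct.

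**Figure D4:**
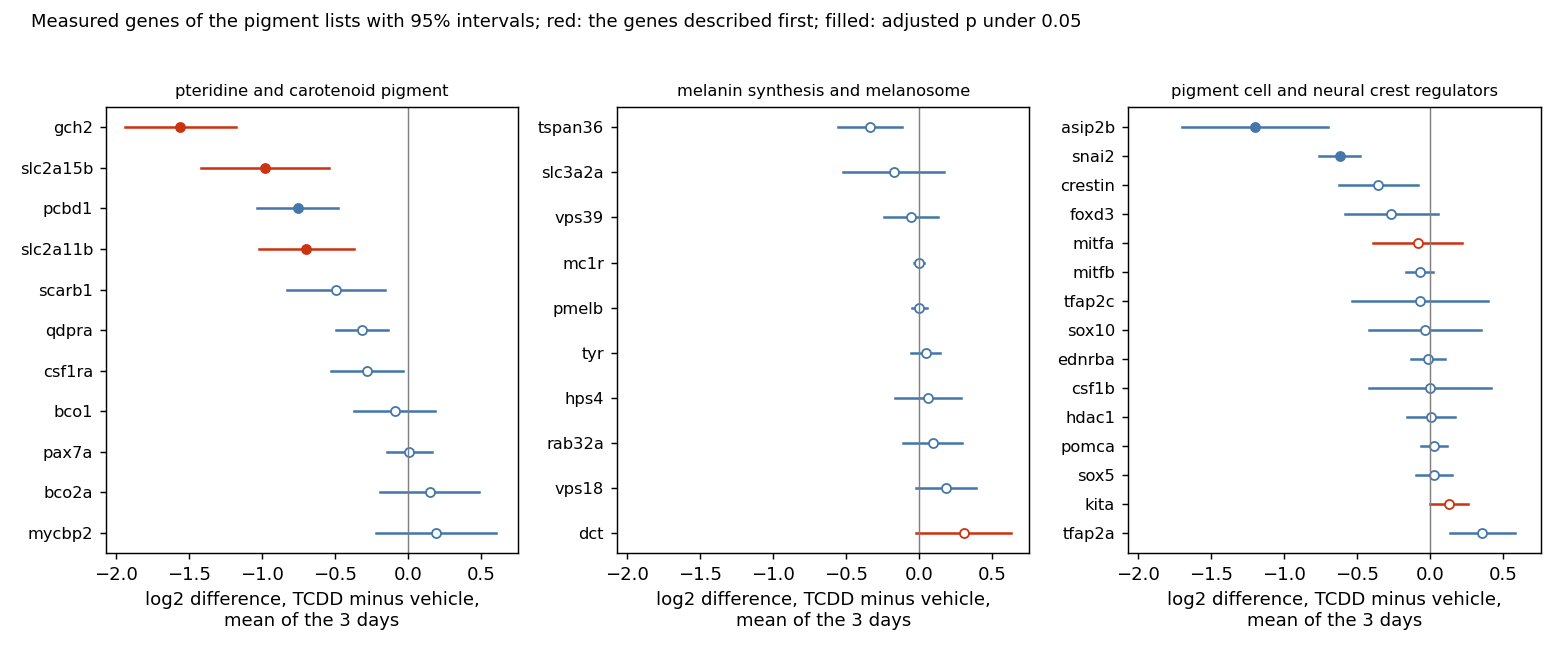
Mean TCDD minus vehicle log2 difference over the 3 days for the measured genes of 3 pigment lists, with 95% intervals (n = 3 arrays in each of 6 groups); red marks the xanthophore and melanophore genes described above, filled points have an adjusted p under 0.05. gch2, slc2a15b, pcbd1 and slc2a11b are called in the pteridine and carotenoid list, none in the melanin list, and asip2b and snai2 among the regulators.

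Among 37 regulators of pigment cells and the neural crest, 15 were measured and 13 were not described above. 2 of the 13 fell in the mean effect, against the 2.48% of all genes given above. snai2, a zinc finger transcription factor of neural crest and mesenchyme, fell by 0.62 ± 0.07 (adjusted p = 6.5e-05), with differences of -1.08 at 3 dpa (adjusted p = 0.000229) and -0.50 at 5 dpa (adjusted p = 0.0394). Its other probe sets, both dimmer, had mean effects of -0.43 and -0.64 and were not called (adjusted p = 0.239 and 0.216). asip2b, of the agouti family, fell by 1.20 ± 0.23 (adjusted p = 0.00796) with a difference of -1.75 at 5 dpa (adjusted p = 0.0427). The 5 dpa calls of snai2 and asip2b were lost without any 1 of 8 and of 10 of the 18 arrays, while the mean effects held without any 1 array. With only letters held by both exposures, the mean effect of asip2b was not called (adjusted p = 0.0532). With a letter block asip2b was called at 3 dpa too (adjusted p = 0.0227, against 0.252 without), and so was the mean effect of tfap2a, a neural crest transcription factor (0.36, adjusted p = 0.0275, against 0.0784 without).

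Of the other neural crest genes on that list, sox10, foxd3 and crestin were not called with TCDD at 5 dpa: sox10 differed by -0.38 (adjusted p = 0.544), foxd3 by -0.83 (adjusted p = 0.119) and crestin by -0.71 (adjusted p = 0.118). From 1 to 5 dpa, limma called 5 of the 13 regulators higher with vehicle, against 7.46% of all genes. With TCDD it called 2 of the 13 higher, against 8.37%. crestin had the smallest adjusted p of the 13 with vehicle, where it rose by 1.27 (adjusted p = 0.00116).

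Pteridines start from GTP, and of 19 genes of purine synthesis 10 were measured. None was called in the mean effect, but impdh1b, an IMP dehydrogenase, passed with a letter block (-0.27, adjusted p = 0.0457, against 0.332 without). The 1 called at 5 dpa, against 0.955% of all genes called lower, was adss1, an adenylosuccinate synthase (-0.36, adjusted p = 0.0421), a dim gene. Its adjusted p was 0.0722 when letters were blocked, and the call was lost without any 1 of 13 of the 18 arrays. Quantile normalization, median centring and a constant prior each lost the call too. So did only the groups compared, only letters held by both exposures, and no letter C arrays at 3 dpa (adjusted p up to 0.228). Of 12 genes of phenylalanine and tyrosine breakdown, 9 were measured, and 1 fell in the mean effect, against 2.48% of all genes called lower. This was hgd, the homogentisate dioxygenase, which fell by 1.85 ± 0.27 (adjusted p = 0.00074). hgd fell by 2.08 at 3 dpa (adjusted p = 0.0415, lost without any 1 of 12 of the 18 arrays) and by 2.95 at 5 dpa (adjusted p = 0.00473, held without any 1 array, but adjusted p = 0.0922 with only letters held by both exposures).

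Markers of other cells also moved with TCDD. Of 6 macrophage markers 5 were measured, and 3 of the 5, marco, c1qc and spi1b, fell in the mean effect, against the 2.48% of all genes. At 5 dpa limma called 0 of the 5, of which 3 had an unadjusted p under 0.05, as had 2736 of the 15502 probe sets. At 1 dpa 5 of the 5 had such a p, as had 8.01% of all probe sets. At 3 dpa 2 of the 5 had one, as had 1670 of the 15502. c1qc alone was called lower at 1 dpa and at 3 dpa, against 0.0796% and 0.933% of all genes. The summed intensity of the 5 was 2274 to 3203 with vehicle and 1365 to 1696 with TCDD at 1 dpa. It was 1562 to 2331 with vehicle and 1132 to 1388 with TCDD at 3 dpa. At 5 dpa it was 1699 to 2422 with vehicle and 1092 to 1773 with TCDD, so that the exposures overlapped on that day alone. Of 6 osteoblast markers 5 were measured, and 3 of the 5, runx2a, col10a1a and ifitm5, fell in the mean effect, against the same 2.48%. runx2a and ifitm5 were called lower at 3 dpa, against 0.933% of all genes, and runx2a alone at 5 dpa, against 0.955%. The sum over the 5 was 855.6 to 998.5 with vehicle and 468.8 to 538.7 with TCDD at 1 dpa. It was 13550 to 19020 with vehicle and 3297 to 6974 with TCDD at 3 dpa. At 5 dpa it was 22350 to 23660 with vehicle and 8565 to 16730 with TCDD.

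For comparison, the sum over the 5 measured of 8 xanthophore markers at 5 dpa was 746.4 to 1137 with vehicle and 266.7 to 397.4 with TCDD. At 1 dpa it was 441 to 683.6 with vehicle and 362.9 to 451.5 with TCDD, with overlap. At 3 dpa it was 644.6 to 829.2 with vehicle and 356.5 to 462.3 with TCDD. These markers include gch2, slc2a15b and slc2a11b, so that the sum mainly repeats their differences. The others measured, csf1ra and pax7a, were dim and not called in a TCDD contrast. The sum over the 5 measured of 11 melanophore markers, which include mitfa, dct and kita, was 117 to 135.5 with vehicle and 94.39 to 145.3 with TCDD. None of the 3 measured of 6 neural crest and Schwann cell markers was called in a TCDD contrast, nor was ednrba, the 1 measured of 7 iridophore markers, nor any of 4 skeletal muscle or 3 erythrocyte markers. The defining melanophore markers tyr and mc1r lay near the bottom of the array. What part the other cell types have in the pigment cell differences was not tested.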

How the data were processed

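Transcripts were measured on 18 Affymetrix arrays of pooled zebrafish caudal fin, 3 in each of 6 groups named by the labels. The authors deposited a linear intensity for each probe set, and the submitters' processing notes name GCRMA, whose version is not given in the sources used here, and scanner files were not used here. Of 15617 probe sets, 115 controls were left out. The platform annotation gave 10795 probe sets 1 symbol, 135 several and 4572 none, and 10711 of the first were found in a RefSeq gene table by Entrez ID. Where a gene had several probe sets, the brightest stood for it in counts of genes, of which there were 8793.

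The values were taken as log2(intensity + 1), which understates differences of dim probe sets. A model of the 6 group means was fitted to all 18 arrays with limma 3.58.1 (R 4.3.3; eBayes with a trend), with Benjamini-Hochberg adjustment over 15502 probe sets. All tests were two-sided. Precision is limited by how many arrays there are. The fit was tested on simulated data. Plots used Python 3.11.15 and matplotlib 3.10.9.

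The genes named were all members of the set with every probe set, each gene of the other pigment lists called in a TCDD contrast, or up to 3 with the smallest adjusted p of the mean effect, and the 5 genes most like gch2 and dct. qdpra, scarb1, bco1, csf1ra, pax7a, the neural crest genes and bco2a were picked with their values in view. So were mycbp2, tfap2a, impdh1b, the remaining melanin genes and the genes of the courses. The members and lists were chosen with earlier results of these data known.

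The labels do not say what a replicate letter stands for, nor whether pools are separate in anything but the fish, so that p-values measure the spread between these pools. After the group mean was taken off every array, arrays of the same day were correlated between the exposures. For the 7 pairs that share a letter r was 0.20 to 0.70, all over 0.1, and for 20 pairs that do not, 2 were over 0.1 (medians 0.57 and -0.17). Of 24 pairs that share a letter on different days, 23 were over 0.1 (median 0.372). The letters therefore link the arrays within and across days. Arrays are thus not independent of each other in the mean effect and the courses either. The main fit has no letter term, and the blocked value is given where it changes the call of a TCDD effect described here. Contrasts that share arrays, such as a day's TCDD effect, the mean effect and the courses, are not independent of each other. Alternatives were the letter as a block, only the groups compared, only letters held by both exposures, no letter C arrays at 3 dpa, quantile normalization, median centring, a pseudocount of 16, no probe sets below percentile 40, a constant prior, and leaving out each array.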

Additional observations from a re-analysis of the deposited data

How the results depend on the processing

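Of the 8 probe sets, the number called at 3 dpa was 1, but 2 with a letter block and 0 if the fit held just the groups compared, with only letters held by both exposures, or without the letter C arrays; leaving out 1 array gave 0 to 1. At 5 dpa it was 2, but 3 with a letter block, 0 with only letters held by both exposures, and 1 to 3 without 1 array. In the mean effect it was 3, but 1 with only letters held by both exposures, 2 without the letter C arrays, and 3 to 4 without 1 array. From 1 to 5 dpa with vehicle it was 2, but 1 with a letter block or if the fit held just the groups compared, 0 with only letters held by both exposures or without the letter C arrays, and 0 to 2 without 1 array. From 1 to 5 dpa with TCDD it was 1, but 2 with a letter block, 0 if the fit held just the groups compared, without dim probe sets (dct is one) or with only letters held by both exposures, and 0 to 1 without 1 array. Settings that leave out arrays or groups have fewer arrays to estimate the spread, and otherwise the cause was not tested. The gch2 effect at 5 dpa was -2.05 with only letters held by both exposures (adjusted p = 0.0705), and its mean effect stayed called under every alternative run (adjusted p up to 0.00936). Quantile normalization, median centring, the pseudocount of 16 and the constant prior changed none of these 5 counts.

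Log2 differences near 0 changed sign, none of them called: the second slc2a15b set at 1 dpa (0.053 with a letter block, 0.21 with only letters held by both exposures, -0.29 to 0.069 without 1 array), mitfa at 3 dpa (0.017 with median centring, -0.26 to 0.22 without 1 array), the second gch2 set from 1 to 5 dpa with vehicle (-0.060 with a letter block, -0.073 with quantile normalization, -0.064 to 0.18 without 1 array) and with TCDD (0.045 with only letters held by both exposures), and kita from 1 to 5 dpa with vehicle (0.0075 with a letter block, 0.020 with only letters held by both exposures, -0.10 to 0.018 without 1 array) and with TCDD (-0.0037 with median centring, -0.029 with only letters held by both exposures, -0.041 to 0.15 without 1 array). Leaving out 1 array also turned the second gch2 set at 1 dpa (-0.24 to 0.10), slc2a15b at 1 dpa (-0.44 to 0.10) and slc2a11b from 1 to 5 dpa with TCDD (-0.056 to 0.31).

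The total of called probe sets depended on the fit. The letter block gave 489 at 3 dpa against 172, 520 at 5 dpa against 255 and 1063 in the mean effect against 586. Only the groups compared gave 0 at 1 dpa against 38, 59 at 3 dpa and 115 at 5 dpa. Only letters held by both exposures gave 3 at 1 dpa, 31 at 5 dpa and 259 in the mean effect, and leaving out the letter C arrays gave 36 at 3 dpa and 385 in the mean effect. With only the groups compared, the mean effect and the test between days have no value, and dim members have none without dim probe sets. Signal limits the dim probe sets, and 3 arrays a group limit each day.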
